A study of Mus musculus with 6 samples.

Results

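The genes described here are 48 of the 12353 genes quantified in mouse gastrocnemius, a calf muscle, and together they cover MHC molecules, macrophage products and genes shared by most leukocytes. A total of 17 were taken because they are protein-coding and their symbol starts with H2-, the prefix of the mouse major histocompatibility complex, and the other 31 came from a list of macrophage, complement, Fc receptor and leukocyte genes, all of which were present. The annotation used here holds 34 protein-coding H2- genes. The other 17, with *H2-Oa*, *H2-Ob* and *H2-Eb2* of class II and most H2-M genes among them, are not among the genes of the table, each of which reached an FPKM of 1 in at least 1 library (FPKM, fragments scaled for the length of the transcript and the depth of the library).

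The study compared muscle of mice lacking Nogo (Nogo-/-, labeled Nogo KO) with muscle of wild-type mice (Nogo+/+, labeled WT), with 3 biological replicates in each group and 1 library of polyadenylated RNA per replicate. Nogo is a reticulon protein of the endoplasmic reticulum, encoded by *Rtn4*, and the knockout line came from another laboratory. No treatment is given for these muscles, and the age, sex and strain of the mice are not given for this experiment in the sources used here. No promoter or cell type that limits the knockout is given. Libraries are called by their number in the table, 4 to 6 for Nogo-/- and 1 to 3 for Nogo+/+.

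MHC class I molecules display peptides from inside the cell on nearly every cell type. Each is a heavy chain that pairs with beta-2-microglobulin. The class Ia heavy chains are broadly expressed and present peptides to CD8 T cells, whereas the class Ib chains, among them the H2-Q and H2-T genes, are less polymorphic and include ligands of natural killer and unconventional T cells. Class II molecules are made mainly by dendritic cells, B cells and some macrophages, load peptides from endocytosed protein with the help of the invariant chain Cd74, and present them to CD4 T cells. Healthy skeletal muscle holds few leukocytes, mostly resident macrophages between the fibers, and their transcripts are diluted by those of the fibers in whole-muscle RNA.

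*Rtn4* matched the labels in every library, with an FPKM of 0.423, 0.312 and 0.368 in Nogo-/- muscle, against 414, 429 and 425 in Nogo+/+ muscle. The libraries were of like depth, at about 13728000 to 14427000 fragments in Nogo-/- and 13466000 to 14413000 in Nogo+/+. Contractile and metabolic fiber genes led the libraries in both groups, with a summed FPKM of 32820 to 34840 for 12 fiber genes in Nogo-/- and 34500 to 35220 in Nogo+/+. Some libraries stood apart. Nogo-/- library 6 held skin transcripts, with a summed FPKM of 358 over 14 skin genes against 13.1 to 28.3 in the other 5 libraries. Nogo-/- library 5 held neutrophil transcripts, with a summed FPKM of 21.9 over 8 genes against 2.16 to 3.70 in the other 5. Nogo+/+ library 2 held B cell transcripts, given beside the leukocyte genes.

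Of the 48 genes, 3 passed the test and all 3 were lower in Nogo-/- muscle. They were *H2-Q6*, *H2-Q7* and *H2-Q4*, class Ib genes that lie side by side on chromosome 17. Over all 12353 genes, 4.64% passed in either direction and 2.75% passed as lower in Nogo-/- (limma on quantile-normalized log2(FPKM + 1), Benjamini-Hochberg adjusted p under 0.05). The class Ia heavy chains, the class II genes, the C1q chains and the macrophage receptor *Csf1r* did not pass. The median log2 difference of the 48 genes was -0.09, beside -0.01 for all genes, and 30 of the 48 were below 0 against 18 above. *H2-Q6* and *H2-Q7* also passed without Nogo-/- library 6, Nogo-/- library 5 or Nogo+/+ library 2, the libraries that stood apart, and 3, 2 and 2 of the 48 passed in these fits. *H2-Q4* passed in none of these fits, and the third gene without Nogo-/- library 6 was *Lyve1*, higher in Nogo-/-. In whole muscle, fewer cells of a type and less RNA per cell cannot be told apart.

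Promoters of some class Ib genes are shown first. *H2-Q4*, *H2-Q6* and *H2-Q7* passed the test, and they share upstream sequence with each other and with *H2-Q10* and *H2-K1*, which did not pass. Each line gives 144 bases near the start annotated by RefSeq on GRCm38.p6, 5′ to 3′ on the strand of the gene, with 3 motifs in capitals. The motifs are GGGATTCCC, part of the class I enhancer bound by NF-kB factors, TTTCACTT, the core of an interferon-stimulated response element, and CCAAT or its reverse complement ATTGG. The windows are chr17:35379430-35379573 for *H2-Q4*, chr17:35424664-35424807 for *H2-Q6*, chr17:35439008-35439151 for *H2-Q7* and chr17:35469900-35470043 for *H2-Q10*, all on the + strand, and chr17:34000328-34000471 on the - strand for *H2-K1*.
H2-Q4: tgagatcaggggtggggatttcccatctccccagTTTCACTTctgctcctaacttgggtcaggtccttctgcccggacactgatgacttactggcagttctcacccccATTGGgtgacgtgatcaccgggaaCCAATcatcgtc
H2-Q6: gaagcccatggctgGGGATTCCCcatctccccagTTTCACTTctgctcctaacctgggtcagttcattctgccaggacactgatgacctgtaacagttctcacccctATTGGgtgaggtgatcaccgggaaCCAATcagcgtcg
H2-Q7: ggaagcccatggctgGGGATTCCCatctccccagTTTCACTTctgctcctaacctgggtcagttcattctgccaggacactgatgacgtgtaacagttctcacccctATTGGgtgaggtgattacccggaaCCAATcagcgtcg
H2-Q10: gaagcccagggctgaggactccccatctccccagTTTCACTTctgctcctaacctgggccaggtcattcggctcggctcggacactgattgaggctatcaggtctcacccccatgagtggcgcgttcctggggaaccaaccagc
H2-K1: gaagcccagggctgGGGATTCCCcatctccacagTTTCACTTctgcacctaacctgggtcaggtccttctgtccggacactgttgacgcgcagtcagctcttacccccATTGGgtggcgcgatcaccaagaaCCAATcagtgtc

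Promoter windows of 300 bases (250 before the start and 50 after it) were at hand for 37 of the 48 genes and for 27025 genes in all, and both strands were searched. GGGATTCCC was found in 4 of the 37, *H2-K1*, *H2-D1*, *H2-Q6* and *H2-Q7*, and in 0.414% of all promoters. TTTCACTT was found in 9 of the 37, 8 of them class I genes and the other *Ly86*, and in 1.91% of all promoters. The letters CCAAT are common, at 23 of the 37 and 41.1% of all promoters. In the printed windows *H2-Q10* is the gene without CCAAT, and *H2-Q4* and *H2-Q10* are those without GGGATTCCC. *H2-K1*, which did not pass the test, has every motif that *H2-Q6* has. The Y box core of class II promoters, TGATTGG, overlaps CCAAT read on the other strand. It was found in 12 of the 37 and in 9.0% of all promoters, and not only in class II genes. The 12 were *H2-Aa*, *H2-Eb1*, *H2-DMb1* and *H2-DMb2* of class II, *H2-D1*, *H2-K1*, *H2-Q4*, *H2-Q6*, *H2-Q7*, *H2-T22* and *H2-T23* of class I, and *Cd68*.

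*H2-Q6* (ENSMUSG00000073409, chr17:35424850-35430055) and *H2-Q7* (ENSMUSG00000060550, chr17:35439155-35443773) encode forms of the Qa-2 antigen, a class Ib molecule that can be anchored to the membrane by a lipid. *H2-Q6* had an FPKM of 2.52, 2.25 and 2.54 in Nogo-/- libraries 4, 5 and 6, against 6.11, 6.67 and 6.17 in Nogo+/+ libraries 1, 2 and 3. The groups were far apart and each varied little, at 2.44 ± 0.161 in Nogo-/- and 6.32 ± 0.306 in Nogo+/+ (SD, n = 3 each), so the Nogo-/- mean was 38.6% of the Nogo+/+ mean. The difference was -1.13 on the log2(FPKM + 1) scale (SE 0.08), with a limma adjusted p of 2.28e-04. The 1 added to each FPKM pulls the differences of weakly expressed genes toward 0.

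*H2-Q7* had an FPKM of 3.13, 2.04 and 2.30 in Nogo-/- muscle, against 4.57, 6.55 and 5.27 in Nogo+/+ muscle. Every Nogo-/- library was below every Nogo+/+ library, and the Nogo-/- mean was 45.6% of the Nogo+/+ mean. The log2 difference was -0.92 (SE 0.14) with a limma adjusted p of 0.0103. Without Nogo+/+ library 3 the difference was -0.94 and its limma adjusted p 0.0524.

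*H2-Q4* (ENSMUSG00000035929, chr17:35379617-35385290) was the most abundant of the H2-Q genes. Its FPKM was 12.1, 10.6 and 9.83 in Nogo-/- muscle, against 12.9, 14.5 and 16.0 in Nogo+/+ muscle, so the groups did not overlap but the nearest libraries were close. The log2 difference was -0.43 (SE 0.09) with a limma adjusted p of 0.0392, and the Nogo-/- mean was 75.0% of the Nogo+/+ mean. The call was lost in several fits. The limma adjusted p was 0.151 without Nogo+/+ library 2, 0.14 without Nogo+/+ library 3, 0.0995 without Nogo-/- library 5 and 0.0967 without Nogo-/- library 6, with differences between -0.36 and -0.42. It was 0.0688 without quantile normalization and 0.0734 without the mean-variance trend.

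The table holds 4 genes between the start of *H2-Q4* and the end of *H2-Q7*, and all 4 were lower in Nogo-/- muscle. The additional gene is *H2-Q5*, annotated as a polymorphic pseudogene and so not one of the 48. Its FPKM was 0.746, 0.390 and 0.616 in Nogo-/- muscle, against 1.27, 1.51 and 2.44 in Nogo+/+ muscle (log2 difference -0.84, limma adjusted p 0.0383). *H2-Q5* reached an FPKM of 1 only in Nogo+/+ libraries, so its place in the table depended on the group where it was higher. Over the stretch from *H2-K1* to *H2-M3*, chr17:33996017-37274484, 104 genes of the table were tested and 5 passed, all lower in Nogo-/-. Of all genes, 4.64% passed in either direction and 2.75% passed as lower. These were the 4 H2-Q genes and *Zbtb12*, which was named after its value was seen.

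The H2-Q genes resemble each other, and fragments that fit several of them could be assigned to the wrong gene. Of all 100-base stretches in their annotated transcripts, 10.1% in *H2-Q6*, 11.9% in *H2-Q7* and 14.0% in *H2-Q5* also occur in another class I gene, compared with 1.16% in *H2-Q4* and 7.25% in *H2-Q10*. The values of *H2-Q5*, *H2-Q6* and *H2-Q7* are therefore uncertain one by one, and whether shared fragments carried the fall of 1 gene into the others was not tested. How fragments matching several genes were divided is not given in the sources used here.

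*H2-Q10*, which encodes a secreted class Ib molecule made mostly by liver, differed from its neighbors in direction. Its FPKM was 3.53, 1.65 and 1.48 in Nogo-/- muscle, against 0.668, 0.784 and 1.04 in Nogo+/+ muscle. All Nogo-/- libraries were above all Nogo+/+ libraries, but Nogo-/- library 4 was far above the other two. The log2 difference of 0.72 (SE 0.21) did not pass, with a limma adjusted p of 0.0993, and it was 0.47 (limma adjusted p 0.141) without Nogo-/- library 4.

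**Figure D1:**
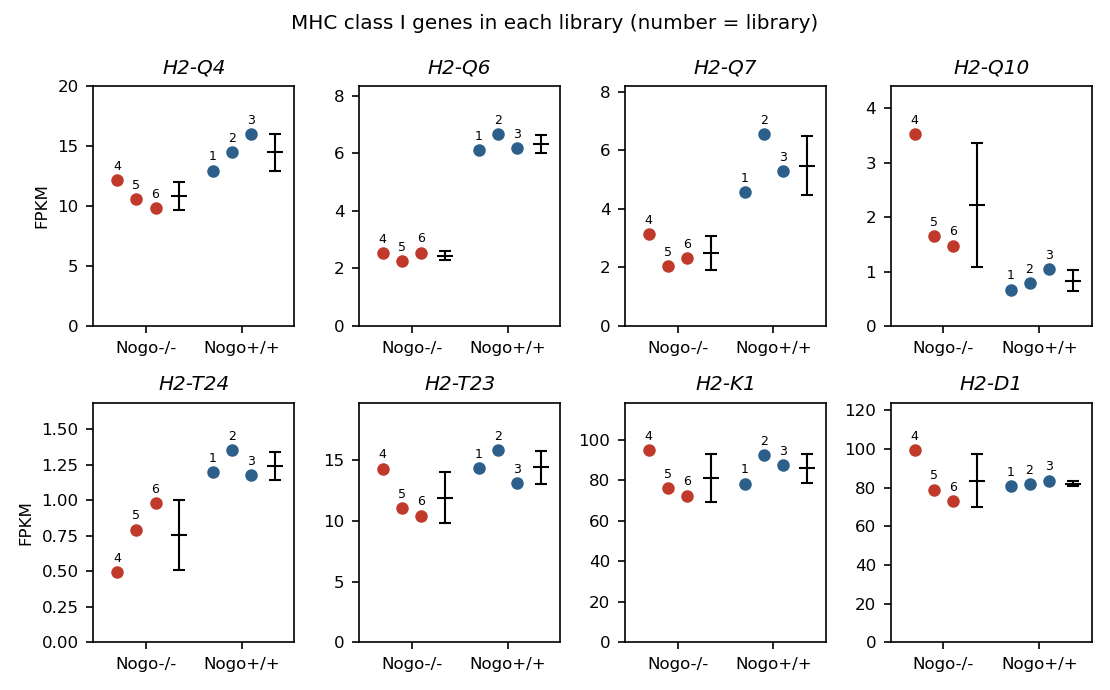
FPKM (vertical axes, starting at 0) of 8 MHC class I genes in each library, with Nogo-/- libraries 4 to 6 in red and Nogo+/+ libraries 1 to 3 in blue; the black mark beside each group is its mean with the SD (n = 3). *H2-Q6*, *H2-Q7* and *H2-Q4* have no overlap between groups with Nogo-/- lower, *H2-Q10* has none with Nogo-/- higher, and *H2-K1* and *H2-D1* overlap.

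The remaining class Ib genes did not pass. *H2-T24* had an FPKM of 0.495, 0.791 and 0.978 in Nogo-/- muscle, against 1.20, 1.35 and 1.17 in Nogo+/+ muscle, without overlap (log2 difference -0.39, limma adjusted p 0.175). Like *H2-Q5*, it reached an FPKM of 1 only in Nogo+/+ libraries. *H2-T23*, which encodes Qa-1, a ligand of the CD94/NKG2A receptor of natural killer cells, had 14.3, 11.0 and 10.4 in Nogo-/- muscle, against 14.3, 15.8 and 13.1 in Nogo+/+ muscle. Its Nogo-/- library 4 lay within the Nogo+/+ range, and the difference was -0.30 (limma adjusted p 0.176). *H2-T22*, a ligand of some gamma-delta T cells, and *H2-M3*, which presents N-formylated peptides, had log2 differences of -0.09 and 0.01.

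The class Ia heavy chains were the most abundant H2- genes and were at like levels in both groups. *H2-K1* had an FPKM of 94.7, 76.0 and 72.4 in Nogo-/- muscle, against 78.3, 92.4 and 87.5 in Nogo+/+ muscle (log2 difference -0.14, 95% interval -0.37 to 0.08, limma adjusted p 0.474). *H2-D1* had 99.2, 78.9 and 72.8 in Nogo-/- muscle, against 80.8, 81.7 and 83.6 in Nogo+/+ muscle. Its difference was -0.04 (95% interval -0.25 to 0.18), and 0.02 without quantile normalization. Nogo-/- library 4 was the highest of all 6 for both genes, while Nogo-/- libraries 5 and 6 were below every Nogo+/+ library.

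*B2m*, the beta-2-microglobulin chain shared by all these heavy chains, had the highest FPKM of the 48 genes. It stood at 125, 106 and 103 in Nogo-/- muscle, against 109, 132 and 122 in Nogo+/+ muscle, and the groups overlapped (log2 difference -0.15, limma adjusted p 0.398). Of 19 genes that supply, load or control class I molecules, 0 passed, whereas 4.64% of all genes did, and their median log2 difference was 0.01. At an unadjusted limma p under 0.05, 3 of the 19 were lower in Nogo-/-, near the 11.6% of all genes that were. They were *Tap1*, a subunit of the peptide transporter (-0.43, adjusted p 0.0853), *Psmb9*, an immunoproteasome subunit (-0.24, adjusted p 0.209), and *Nlrc5*, the transactivator of class I genes (-0.29, adjusted p 0.214).

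Several interferon-responsive genes moved in the same direction as the H2-Q genes. Of 38 such genes in the table, 4 fell in Nogo-/- muscle, against 2.75% of all genes, and the median log2 difference was -0.16. At an unadjusted limma p under 0.05, 15 of the 38 were lower, against 11.6% of all genes. The 4 that passed were the guanylate-binding proteins *Gbp4* (-1.05) and *Gbp2* (-0.44), the antiviral enzyme *Rsad2* (-0.47) and the GTPase *Ifi47* (-0.60), with limma adjusted p between 0.0108 and 0.0392. *Gbp4* had an FPKM of 2.32, 3.03 and 1.62 in Nogo-/- muscle, against 4.63, 6.40 and 5.91 in Nogo+/+ muscle, and did not overlap. Of 10 endothelial markers 6 fell, against 2.75% of all genes, the junction protein gene *Cldn5* and the VEGF receptor gene *Kdr* among them. *Flt1*, another VEGF receptor gene, had a log2 difference of 0.12 (limma adjusted p 0.388). The summed FPKM of the 10 was 178 to 216 in Nogo-/- and 245 to 277 in Nogo+/+. The part of either group of genes in the H2-Q values was not tested.

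Class II genes had lower means in Nogo-/- muscle, but the groups overlapped. Of the 6 genes, 0 passed in limma, and 2 had an unadjusted p under 0.05, as did 20.5% of all genes. *H2-Aa*, the alpha chain of I-A, had an FPKM of 26.5, 16.9 and 18.1 in Nogo-/- muscle, against 31.3, 33.0 and 20.3 in Nogo+/+ muscle (log2 difference -0.50, limma adjusted p 0.223). *H2-Eb1*, the beta chain of I-E, had 20.8, 13.4 and 13.8 in Nogo-/- muscle, against 26.2, 22.4 and 16.3 in Nogo+/+ muscle (-0.46, limma adjusted p 0.226). In both genes Nogo-/- library 4 stood above the other Nogo-/- libraries and Nogo+/+ library 3 below the other Nogo+/+ libraries. The beta chain of I-A, *H2-Ab1*, had a difference of -0.20 (95% interval -0.59 to 0.19). The invariant chain *Cd74* had an FPKM of 55.8, 39.8 and 41.2 in Nogo-/- muscle, against 68.4, 52.8 and 41.8 in Nogo+/+ muscle (log2 difference -0.28, 95% interval -0.69 to 0.13). Its difference was -0.42 without Nogo-/- library 4, -0.10 without Nogo+/+ library 1 and -0.45 without Nogo+/+ library 3.

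The class II loading factors *H2-DMa*, *H2-DMb1* and *H2-DMb2* exchange peptides on class II molecules, and their log2 differences were -0.20, -0.10 and -0.39. The difference of *H2-DMb2* rested on 1 library, with an FPKM of 0.481, 0.256 and 0.273 in Nogo-/- muscle, against 0.376, 1.26 and 0.206 in Nogo+/+ muscle. All 6 class II genes were highest in library 4 among the Nogo-/- libraries and lowest in library 3 among the Nogo+/+ libraries. Of 16 further genes of class II loading and control, 0 passed in limma and 2 had an unadjusted p under 0.05, a smaller share than the 20.5% of all genes. *Ifi30*, the lysosomal thiol reductase, had an FPKM of 9.61, 9.08 and 9.10 in Nogo-/- muscle, against 7.23, 7.24 and 5.22 in Nogo+/+ muscle, with Nogo-/- the higher (log2 difference 0.41, limma adjusted p 0.0844). *H2-Ke6* carries the H2- prefix but encodes a dehydrogenase and no MHC molecule. Its difference was 0.03.

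**Figure D2:**
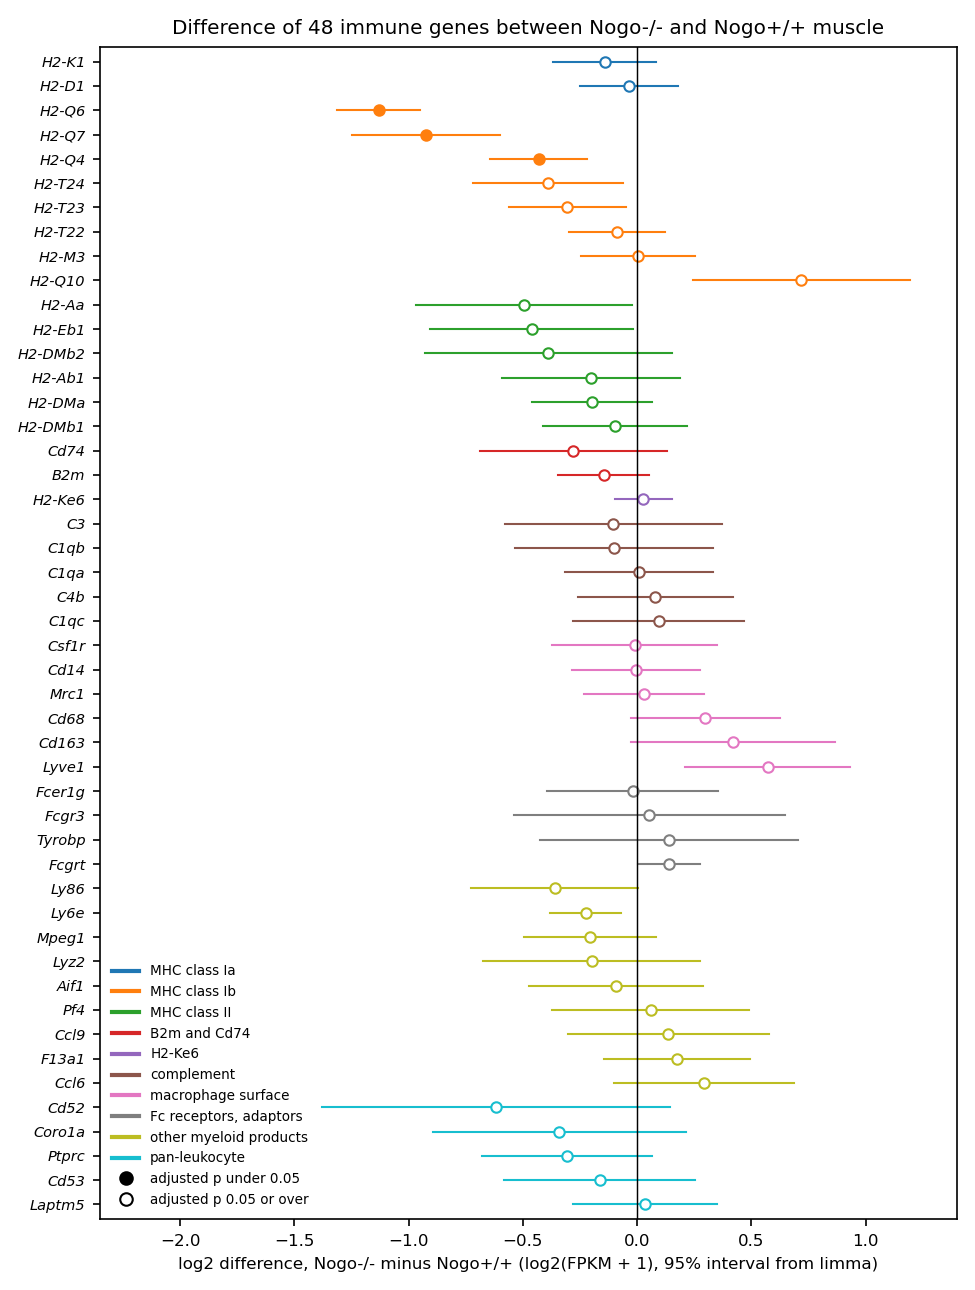
Log2 difference, Nogo-/- minus Nogo+/+, of log2(FPKM + 1) (horizontal axis) for the 48 genes (rows, colored by class), with the 95% interval from limma; filled points have an adjusted p under 0.05. The 3 filled points, *H2-Q6* at -1.13, *H2-Q7* at -0.92 and *H2-Q4* at -0.43, are class Ib genes, and the other intervals mostly cross 0.

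*Csf1r*, the receptor that macrophages depend on for survival, had an FPKM of 5.94, 4.87 and 3.43 in Nogo-/- muscle, against 5.59, 4.43 and 3.84 in Nogo+/+ muscle (log2 difference -0.01, 95% interval -0.37 to 0.35). *Mrc1*, the mannose receptor, differed by 0.03 (-0.23 to 0.29), and *Cd14*, the lipopolysaccharide co-receptor, by 0.00 (-0.29 to 0.28). *Adgre1*, the F4/80 antigen and a defining macrophage marker outside the 48, was present at an FPKM of 1.47, 1.09 and 1.01 in Nogo-/- muscle and 1.32, 1.38 and 1.03 in Nogo+/+ muscle. *Itgam* and *Cx3cr1* are not among the genes of the table. Of 26 other macrophage markers in the table, 15 had a log2 difference above 0 and 11 below, with a median of 0.05. After normalization 5 of the 26 had every Nogo-/- library above every Nogo+/+ library, against 11.0% of all genes. In 1 gene every Nogo-/- library was below, against 14.9% of all genes. It was *Maf*, with a log2 difference of -0.31 (limma adjusted p 0.0556). *Apoe*, the apolipoprotein made by macrophages and other cells, had an FPKM of 125, 96.6 and 90.2 in Nogo-/- muscle, against 83.0, 81.2 and 73.8 in Nogo+/+ muscle, without overlap (log2 difference 0.34, limma adjusted p 0.132). *Il34*, which encodes a ligand of the Csf1r receptor, and *Lgals3*, galectin-3, were also higher without overlap and did not pass, with differences of 0.36 and 0.68 (limma adjusted p 0.084 and 0.265). *Lgals3* was far higher in Nogo-/- library 6, the library with skin transcripts, than in any other library. Its FPKM was 5.12 and 4.78 in Nogo-/- libraries 4 and 5, against 4.42, 3.76 and 3.36 in Nogo+/+ muscle. The part of skin in the *Lgals3* difference was not tested.

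Among surface genes of resident macrophages, *Lyve1*, *Cd163* and *Cd68* had higher means in Nogo-/- muscle without passing. This was not a trait of all such genes. *Stab1* and *Mrc1* differed by 0.14 and 0.03, and *Cd209f*, *Cd209d* and *Cd209g* by -0.36, -0.33 and -0.25, also without passing. *Lyve1*, the hyaluronan receptor of lymphatic endothelium and of a subset of vessel-associated macrophages, had an FPKM of 3.34, 2.89 and 1.71 in Nogo-/- muscle, against 1.30, 1.48 and 1.22 in Nogo+/+ muscle. The groups did not overlap and the log2 difference was 0.57 (SE 0.16), with a limma adjusted p of 0.0857. Without Nogo-/- library 6, the library with skin transcripts, it was 0.76 with a limma adjusted p of 0.0105. The lymphatic markers *Flt4* and *Pdpn* had differences of 0.08 and 0.19 (limma adjusted p 0.73 and 0.345), and their part in the *Lyve1* value was not tested.

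*Cd163*, the haptoglobin-hemoglobin receptor, had an FPKM of 3.44, 2.36 and 2.05 in Nogo-/- muscle, against 2.52, 1.33 and 1.16 in Nogo+/+ muscle, and overlapped through Nogo+/+ library 1 (log2 difference 0.42, limma adjusted p 0.272). *Cd68*, a lysosomal glycoprotein of macrophages, differed by 0.30 with a limma adjusted p of 0.286.

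Complement genes among the 48 did not pass. The 3 chains of C1q, which macrophages secrete and which starts the classical pathway, had log2 differences of 0.01 for *C1qa*, -0.10 for *C1qb* and 0.09 for *C1qc*. *C1qa* had an FPKM of 22.9, 18.2 and 15.6 in Nogo-/- muscle, against 21.8, 15.9 and 16.4 in Nogo+/+ muscle. The central component *C3* and the C4 gene *C4b* differed by -0.10 and 0.08. Of 16 other complement components, receptors and regulators in the table, 0 passed in limma and 0 had an unadjusted p under 0.05.

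Fc receptors bind antibody, and some of them signal through adaptors with ITAM motifs. *Fcer1g*, *Fcgr3* and *Tyrobp* had log2 differences of -0.02, 0.05 and 0.14, and each overlapped. *Fcgrt*, the neonatal Fc receptor that recycles IgG and albumin and is made by endothelium as well as macrophages, had an FPKM of 37.8, 35.1 and 32.2 in Nogo-/- muscle, against 31.2, 28.9 and 30.8 in Nogo+/+ muscle. Every Nogo-/- library was higher, by a small margin, with a difference of 0.14 and a limma adjusted p of 0.226. Of 8 further genes of this kind, 0 passed in limma and 0 had an unadjusted p under 0.05.

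Among the other myeloid products, *Ly6e*, an interferon-inducible membrane protein of many cell types, had an FPKM of 90.1, 80.1 and 74.7 in Nogo-/- muscle, against 99.0, 88.9 and 89.5 in Nogo+/+ muscle. The groups overlapped slightly in FPKM but not after quantile normalization, and the log2 difference was -0.23 (limma adjusted p 0.112). *Lyz2*, lysozyme of macrophages and neutrophils, had 52.7, 40.5 and 31.5 in Nogo-/- muscle, against 59.8, 44.3 and 35.5 in Nogo+/+ muscle, a broad overlap (-0.20, limma adjusted p 0.653). The *Lyz2* difference was -0.38 without Nogo-/- library 4 and -0.03 without Nogo-/- library 6, and it was -0.01 without Nogo+/+ library 1 and -0.38 without Nogo+/+ library 3. The chemokines *Ccl6*, *Ccl9* and *Pf4*, the transglutaminase *F13a1*, the pore-forming *Mpeg1*, the Toll-like receptor partner *Ly86* and *Aif1* did not pass, with differences between -0.36 for *Ly86* and 0.29 for *Ccl6*.

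Pan-leukocyte genes did not pass, and their spread followed single libraries. *Cd52*, a small surface glycoprotein of lymphocytes and macrophages, had an FPKM of 2.52, 2.15 and 2.40 in Nogo-/- muscle, against 4.65, 7.20 and 1.75 in Nogo+/+ muscle (log2 difference -0.62, limma adjusted p 0.346). Nogo+/+ library 3 was below every Nogo-/- library, and without it the difference was -1.05 with a limma adjusted p of 0.0336. *Ptprc*, the CD45 phosphatase of all leukocytes, had 1.02, 0.773 and 0.692 in Nogo-/- muscle, against 1.08, 1.73 and 0.842 in Nogo+/+ muscle. *Coro1a*, an actin regulator of leukocytes, had 4.52, 2.77 and 2.31 in Nogo-/- muscle, against 5.02, 5.19 and 2.48 in Nogo+/+ muscle. Nogo+/+ library 2 was the highest in all 3 genes. *Cd53* and *Laptm5* had differences of -0.16 and 0.03.

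B cell transcripts were also high in Nogo+/+ library 2. All 6 B cell genes in the table were highest there among the Nogo+/+ libraries. The B cell receptor component *Cd79a* had an FPKM of 0.247, 0.237 and 0.647 in Nogo-/- muscle, against 0.199, 1.62 and 0.238 in Nogo+/+ libraries 1, 2 and 3. The summed FPKM of the B cell genes, most of it *Ighm*, was 46.3 to 62.2 in Nogo-/- and 57.0 to 74.4 in Nogo+/+. The T cell receptor constant region *Trbc2* had 0.208, 0.0998 and 0.419 in Nogo-/- muscle, against 1.39 in Nogo+/+ library 2 and 0.105 or less in the other Nogo+/+ libraries. Of 5 T cell genes in the table, *Cd247*, a signaling chain of the T cell receptor, fell (log2 difference -0.53, limma adjusted p 0.0372), and it was lowest in library 2 among the Nogo+/+ libraries. The summed FPKM of the T cell genes, most of it *Thy1*, was 25.3, 17.2 and 22.9 in Nogo-/- muscle, against 18.6, 21.4 and 16.95 in Nogo+/+ muscle. Library 2 did not stand apart in this sum, unlike in *Trbc2*. *Trbc1*, another constant region, had 0.586, 0.292 and 0.0984 in Nogo-/- muscle, against 1.00 in Nogo+/+ library 2 and 0.0982 or less in the other Nogo+/+ libraries. *Cd3e*, *Cd4* and *Cd8a* are not among the genes of the table. The part of lymphocytes in the *Cd52*, *Ptprc* and *Coro1a* values was not tested. In the fit without Nogo+/+ library 2, *H2-Q6* still passed, at -1.09 with a limma adjusted p of 0.00332.

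**Figure D3:**
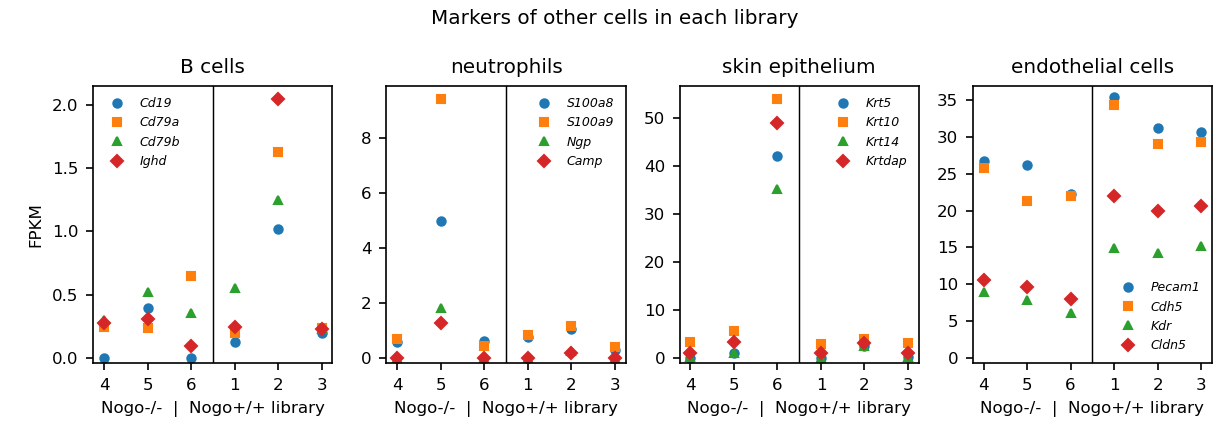
FPKM (vertical axes, a separate linear scale for each panel) of 4 markers each of B cells, neutrophils, skin epithelium and endothelial cells in Nogo-/- libraries 4 to 6 (left of the line) and Nogo+/+ libraries 1 to 3 (right of it). B cell markers peak in Nogo+/+ library 2, neutrophil markers in Nogo-/- library 5 and keratins in Nogo-/- library 6, while the 4 endothelial markers are lower in every Nogo-/- library than in any Nogo+/+ library.

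Many of the 48 genes, though not all, varied together between mice of the same group. After quantile normalization, Nogo-/- library 4 had the highest value of the Nogo-/- libraries in 42 of the 48 genes (87.5%). The share was 33.6% over all 12353 genes. Nogo-/- library 6 was the lowest in 32. Among Nogo+/+ libraries, library 1 was the highest in 25 of the 48 (52.1%), against 35.8% of all genes, and library 3 the lowest in 30. Class I genes differed in this. Library 1 was the highest in 0 of the 8 class Ib and 0 of the 2 class Ia genes, and the lowest in 5 and 2 of them. The 22 macrophage, C1q, Fc receptor and myeloid genes had the clearest pattern, with library 4 the highest in 21 and library 1 the highest in 18, also after normalization. Their summed FPKM was 332, 269 and 226 in Nogo-/- muscle, against 319, 262 and 248 in Nogo+/+ muscle, so the difference between 2 mice of a group was larger than that between the group means. *H2-Q6* did not follow this pattern, as its Nogo-/- libraries 4 and 6 were alike at 2.52 and 2.54.

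**Figure D4:**
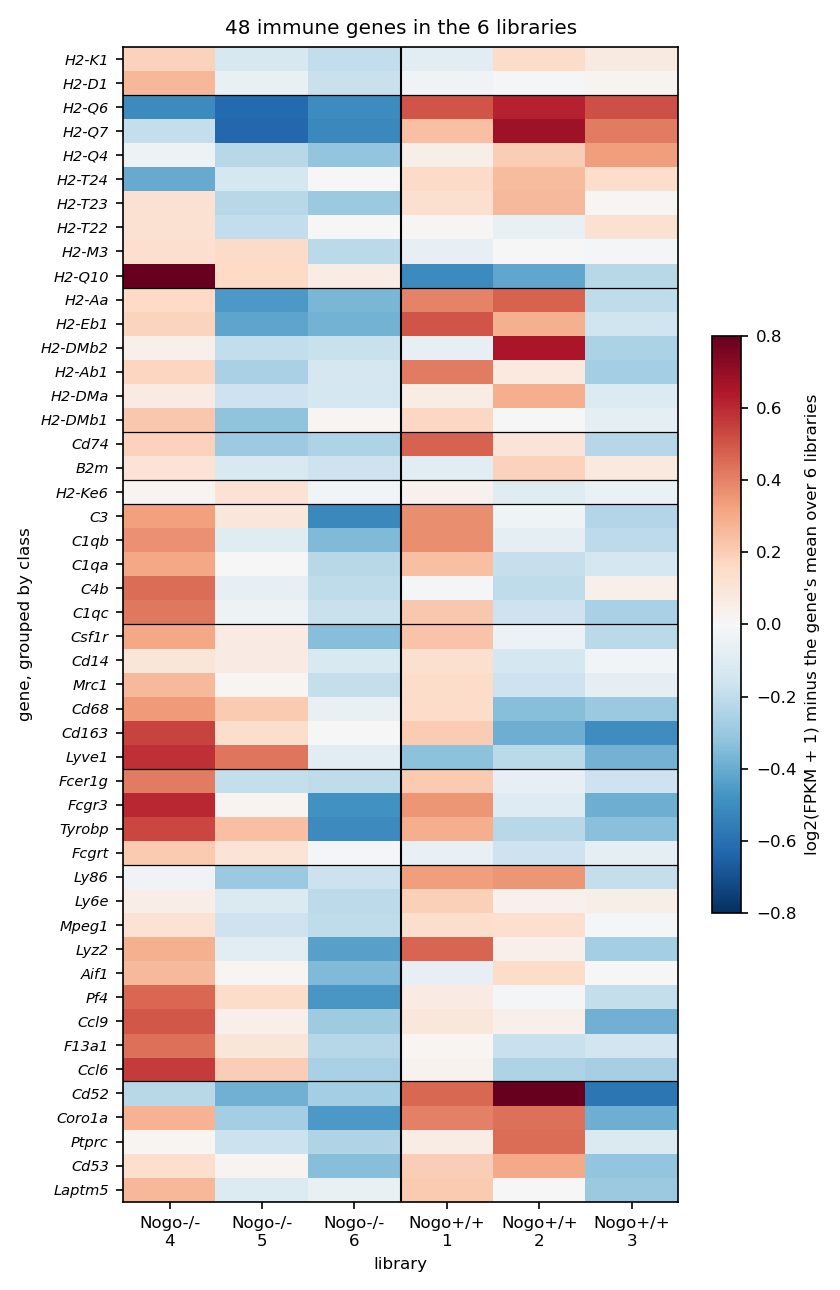
Each gene's log2(FPKM + 1) minus its mean over the 6 libraries (color, red above and blue below the mean, saturating at 0.8) for the 48 genes (rows, grouped by class) in Nogo-/- libraries 4 to 6 and Nogo+/+ libraries 1 to 3 (columns). Library 4 is red in most rows, library 3 is mostly blue among the leukocyte genes, and *H2-Q6* and *H2-Q7* separate the groups instead.

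Without regard to the test, 5 of the 48 genes had every Nogo-/- library below every Nogo+/+ library after normalization, against 14.9% of all genes. They were *H2-Q6*, *H2-Q7*, *H2-Q4*, *H2-T24* and *Ly6e*. A further 3, *Lyve1*, *H2-Q10* and *Fcgrt*, had every Nogo-/- library above every Nogo+/+ library, against 11.0% of all genes, and the other 40 overlapped.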

How the data were processed

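The values analyzed come from the gastrocnemius of 3 Nogo-/- and 3 Nogo+/+ mice, sequenced as stranded mRNA libraries. The submitters' processing notes name CASAVA 1.8.2, cutadapt 1.4.2 for trimming, STAR 2.6.1 for alignment to GRCm38.p6 and Cufflinks 2.2.1 for quantification. The deposited table gives the FPKM of 12353 genes in each library, as computed by the authors, and every gene reached at least 1.0 in some library. A further 6 columns of log2 values normalized by the authors were not used. The columns were assigned to groups from the headings of a supplementary table of the study that holds the same FPKM, and they carry no replicate number.

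FPKM were quantile-normalized and put on the log2 scale as log2(FPKM + 1), where the pseudocount is 1. Groups were compared over all 6 libraries with limma 3.58.1 in R 4.3.3 (two-sided, mean-variance trend, no covariates). P-values were adjusted over the 12353 genes by the method of Benjamini and Hochberg, and the threshold was 0.05. FPKM are not counts, so no count test was run. The procedure was tested on simulated data. Depth was estimated from low FPKM of genes with 1 transcript, of which 95.2% to 96.6% fell on whole fragments to within 0.1, where chance gives 20%. Overlap of groups, and the counts of genes highest or lowest in a library of a group, were judged on the normalized values. Symbols and coordinates came from GENCODE M21, matched for 12347 genes, and promoters from RefSeq on GRCm38.p6. Other steps used pandas 2.3.3, NumPy 2.4.6 and matplotlib 3.10.9 in Python 3.11.15.

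The members and the lists of other genes were chosen with earlier results of these data known. Values in each library are given for members that passed, the 6 with the highest mean FPKM and up to 10 with the smallest p, and for some others. Of the other lists, genes that passed and up to 3 with the highest mean FPKM could be named, and further markers were named after their values were seen. A result among the other macrophage markers is not reported here, though it stays in the counts. The alternatives were no quantile normalization, a pseudocount of 0.1, only genes whose mean FPKM reached 1, scaling to an equal median, no trend, sample weights and leaving out each library.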

Additional observations from a re-analysis of the deposited data

How the results depend on the processing

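The 12 alternatives called 2 to 3 of the 48 genes, not always the same ones, and no setting called a class II, C1q or Fc receptor gene among them. *H2-Q6* passed in all 12 (limma adjusted p 1.59e-04 to 0.00333), *H2-Q7* in 11 (0.00668 to 0.0524) and *H2-Q4* in 6 (0.026 to 0.151). *Lyve1* passed in 1 (0.0105 to 0.229) and *H2-D1* in 0. The difference of *H2-D1* turned to 0.016 without quantile normalization, and ranged from -0.154 to 0.048 when 1 library was left out. Among the other lists 16 genes passed, against 10 without quantile normalization, 10 without the trend and 5 to 16 with 1 library left out (10 without Nogo-/- library 6, and 9, 5 and 5 without Nogo+/+ libraries 1, 2 and 3). Over all genes, 233 were higher and 340 lower in Nogo-/-, against 302 higher and 234 lower without quantile normalization, where the median of all genes was 0.03. Calls over all genes numbered 573, and 188 to 434 with 1 library left out, where fewer samples entered the fit (378 without Nogo-/- library 4, and 301, 188 and 192 without Nogo+/+ libraries 1, 2 and 3). No paired analysis was possible because no column can be tied to a replicate number of the labels. The differences of *B2m* and *H2-K1*, which did not pass, ranged from -0.23 to -0.07 and from -0.25 to -0.08. With 3 mice a group, differences of weakly expressed genes stay imprecise. *H2-M3*, with a mean FPKM of 2.22 in Nogo-/- and 2.10 in Nogo+/+, rested on an estimated 34 to 52 fragments in Nogo-/- libraries and 40 to 44 in Nogo+/+ libraries.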

Other observations

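Chemokines outside the 48 genes moved in both directions. Of 17 chemokines and chemokine receptors in the table, 2 rose and 1 fell in Nogo-/- muscle, while 4.64% of all genes changed in either direction. *Ccl11*, eotaxin, which attracts eosinophils, had an FPKM of 20.4 to 27.0 in Nogo-/- muscle, against 11.8 to 13.2 in Nogo+/+ muscle (log2 difference 0.86, limma adjusted p 0.00171). *Cxcl12*, a chemokine that retains leukocytes and progenitors in tissues, had 39.3, 37.6 and 29.2 in Nogo-/- muscle, against 51.4, 43.0 and 46.7 in Nogo+/+ muscle (-0.46, limma adjusted p 0.0436). *Ackr3*, a scavenging receptor for Cxcl12, had 14.5, 9.62 and 11.4 in Nogo-/- muscle, against 6.87, 7.96 and 7.23 in Nogo+/+ muscle (0.57, limma adjusted p 0.047).

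Other leukocytes left few transcripts. Of 8 neutrophil genes in the table, 0 passed in limma and 0 had an unadjusted p under 0.05, and *S100a9* had an FPKM of 0.694, 9.43 and 0.425 in Nogo-/- muscle, against 0.848, 1.16 and 0.400 in Nogo+/+ muscle. Mast cell and dendritic cell genes, 5 each in the table, had 0 that passed in limma and 1 each at an unadjusted p under 0.05, where 20.5% of all genes were. None of the 9 natural killer cell genes on the list is among the genes of the table.

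Of 14 skin genes 0 passed in limma, with 0 at an unadjusted p under 0.05, and the same held for 9 fibroblast and 5 erythroid genes. Of 8 fat cell genes 0 passed in limma and 4 had an unadjusted p under 0.05, against 20.5% of all genes, all higher in Nogo-/-, with a summed FPKM of 645 to 1105 in Nogo-/- and 604 to 678 in Nogo+/+. After normalization Nogo-/- library 4, the highest Nogo-/- library in 42 of the 48 genes, was also the highest of them in 7 of the 8 fat cell genes. It was the highest in 7 of the 9 fibroblast genes. Among 12 muscle fiber genes, myoglobin *Mb* fell by 0.15 on the log2 scale after quantile normalization (limma adjusted p 0.00562). Before it the fall was small, with an FPKM of 1734, 1645 and 1627 in Nogo-/- muscle, against 1739, 1761 and 1715 in Nogo+/+ muscle. The Nogo-/- mean was 96.0% of the Nogo+/+ mean, and Nogo-/- library 4 lay within the Nogo+/+ range. The part of fat, skin or connective tissue in the values of the 48 genes was not tested.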
